A study of Drosophila melanogaster with 2 samples.

Results

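Binding of the transcription factor Adf1 was examined at 10 genes encoding enzymes of glycolysis in Drosophila melanogaster: Hex-A, Pfk, Ald1, Tpi, Gapdh1, Gapdh2, Pgk, Eno, PyK and Ldh. They were listed by the function of their products, with earlier results of these data known, from 13968 protein-coding genes, and all 10 were found in the annotation. The series holds 1 group, 2 biological replicates of whole embryos collected over 0 to 24 h of development. Both come from the strain Adf1-GFP, whose transgene expresses Adf1 joined to enhanced green fluorescent protein (eGFP), and DNA bound by the fusion was recovered through the tag and sequenced (ChIP-seq); the antibody field of the labels names Adf1, while their description names an anti-GFP antibody. No untagged or untreated sample belongs to the series, so no groups are compared, and a whole embryo pools many cell types and stages whose binding cannot be told apart here. Transcript levels were not measured.

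Glycolysis converts glucose to pyruvate in the cytosol and yields ATP. Hexokinase traps glucose, phosphofructokinase commits it to breakdown, aldolase splits the sugar, and the later enzymes harvest energy from the resulting triose phosphates, after which lactate dehydrogenase turns pyruvate to lactate and renews NAD+. In Drosophila embryos, transcription of these genes is known to rise midway through development in a switch that depends on the Estrogen-related receptor, ERR, and the products fuel rapid growth. Adf1 belongs to the MADF family of DNA-binding proteins, was first described at the alcohol dehydrogenase promoter, and is known to recognise runs of GC-rich triplets.

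The 3 strongest summits at these genes, at Hex-A and Ald1, lay on or within 9 bp of such triplet runs. Those at Gapdh2 and Ldh and the stronger one at Eno lay in AT-rich DNA. A run was found within 50 bp of 3 of the 14 summits near these genes, against 16.0% of all summits. Not every summit was of either kind, since the next strongest, upstream of Hex-A, held no such run and had 48.5% GC. Both kinds are printed from the plus strand of the Release 6 genome sequence of RefSeq (dm6), with capitals marking the matches to GCNGCNGC, a motif that reads the same on both strands. The first 3 sequences are short sites: Hex-A, chrX:9585835-9585863, then Ald1 at its upstream start, chr3R:26261447-26261476, and Ald1 at an internal start, chr3R:26259141-26259170. The match lay 6 bp from the Hex-A summit, 9 bp from the upstream Ald1 summit and across the internal Ald1 summit.
Hex-A: gccggcagcGCAGCAGCAGCgacagcgaa
Ald1 upstream: tcgctgctactGCCGCTGCcgatgcctctg
Ald1 internal: cttttattGCCGCTGCTGCTGCgctgttcc

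The next 3 sequences are the 60 bp to each side of a summit, shown because they hold no match and few G or C bases. They are Gapdh2, chrX:15867936-15868056, Eno, chr2L:1727898-1728018, and Ldh, chr3L:6262844-6262964. Ald1, Eno and Ldh are genes of the minus strand, so these letters run against the direction of transcription for them.
Gapdh2: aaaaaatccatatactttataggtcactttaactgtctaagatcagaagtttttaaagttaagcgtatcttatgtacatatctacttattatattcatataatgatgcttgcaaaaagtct
Eno: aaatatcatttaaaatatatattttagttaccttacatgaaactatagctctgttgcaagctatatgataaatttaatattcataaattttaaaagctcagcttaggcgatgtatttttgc
Ldh: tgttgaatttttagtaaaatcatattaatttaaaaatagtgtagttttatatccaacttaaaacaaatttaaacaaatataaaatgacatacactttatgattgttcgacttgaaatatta

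The authors' conservative peak list, which by its usual definition keeps peaks whose rank is repeated between the replicates, is called the replicate-supported list here and holds 4370 summits, a summit being the position of a peak's highest signal. A gene was counted as bound when a summit lay within 500 bp of any annotated transcription start site (TSS) of that gene. By this count 7 of the 10 genes were bound: Hex-A, Ald1, Gapdh2, Pgk, Eno, PyK and Ldh. Pfk, Tpi and Gapdh1 were not. Among all protein-coding genes the share was 18.9% (2636 genes). All 10 glycolysis genes have at least 2 annotated TSSs, and among the 3699 protein-coding genes with at least 2 the share was 34.8%. The genes were also longer than most, with a median of 4504 bp against 2164.5 bp over all protein-coding genes, and the part of length in the count was not tested.

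Widening the search to each gene with 5 kb to either side found a summit at 8 of the 10 genes, the added one being Pfk, against 43.0% of all protein-coding genes. These windows, 144 kb in all, held 14 summits, or 97.3 per Mb, against 31.8 per Mb over the 7 chromosome arms. The densities are not a like comparison. The windows were drawn around genes, and 2544 of the 4370 summits lay within 500 bp of a protein-coding TSS. The density in windows around other genes is not given. Hex-A had 3, Ald1, Eno, PyK and Ldh had 2 each, and Pfk, Gapdh2 and Pgk had 1 each. Thus 5 of the 10 genes had at least 2 summits, against 17.7% of all protein-coding genes, among which the most at 1 gene was 29. The summit at Pfk and a summit each at PyK and Ldh lay nearer to the start of another protein-coding gene, as described below. Without those, PyK and Ldh would not reach 2 summits and Pfk would have none. Longer genes also have wider windows, and the part of length in these counts was not tested.

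**Figure D1:**
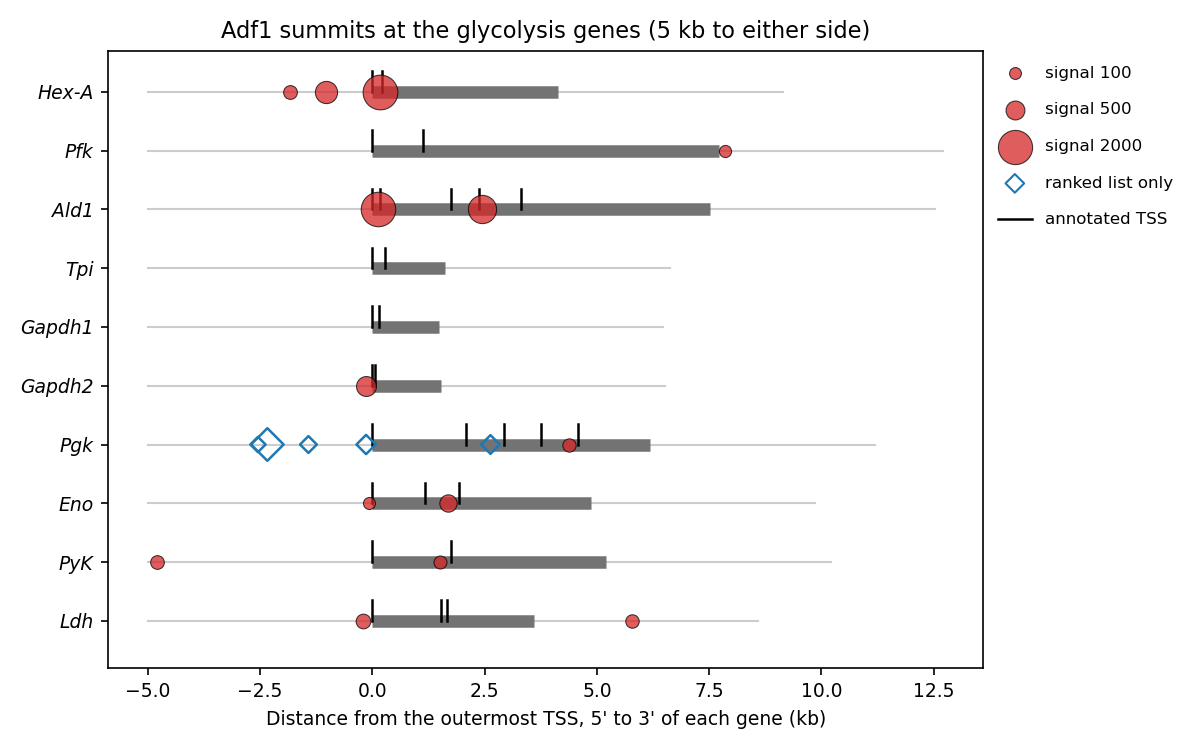
Replicate-supported summits (red circles, area rising with the authors' signal) at the 10 genes, each drawn 5' to 3' as a grey bar with black ticks at its annotated TSSs; the horizontal axis is the distance from the outermost TSS in kb, and blue diamonds are peaks found in the ranked list but not in the thresholded one. Tpi and Gapdh1 have no symbol, Pfk has a single circle past its 3' end, and the largest circles are at Hex-A and Ald1.

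Hex-A (FBgn0001186) encodes the hexokinase that phosphorylates glucose on entry to the pathway. Among the summits near the glycolysis genes only, it carried the one with the highest signal in the replicate-supported list and in replicate 2. In replicate 1 the outer Ald1 summit was slightly higher. Hex-A lies on X from 9585675 to 9589813 on the plus strand. Its main summit, at 9585838, was in the 5' untranslated region, 163 bp downstream of the outer TSS and 52 bp upstream of the second. Its signal was 2067, rank 41 of 4370. The signal is the peak caller's own height measure, whose scale the files do not state, and it serves here only to rank and describe peaks. In replicate 1 the signal of this summit was 450.7 and in replicate 2 it was 1598, and both replicates placed it at the identical base.

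Further summits lay upstream of Hex-A. The nearer, 1033 bp before the outer TSS, had a signal of 750.3 (237.7 in replicate 1 and 527.2 in replicate 2). The farther, 1825 bp before it, had a signal of 190.6 and was the summit with the lowest ratio of replicate 2 to replicate 1, at 120.7 in replicate 1 and 86.47 in replicate 2. No protein-coding gene other than Hex-A has a TSS nearer to either, although the non-coding RNA gene lncRNA:CR45541 starts between them, 327 bp from the farther and 465 bp from the nearer summit. All of these Hex-A summits were present in each replicate's own thresholded list.

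Pfk (FBgn0003071) encodes phosphofructokinase, the enzyme of the committed step. It lies on 2R from 10109740 to 10117457 and had no replicate-supported summit within 500 bp of either TSS. The single summit in its window, at 10117584, had a signal of 112.7 and stood 127 bp beyond the 3' end of Pfk. It was 6714 bp from the nearest Pfk TSS but 110 bp upstream of the TSS of the next gene, dmpd. In replicate 2 this summit was in the thresholded list with a signal of 73.28, while in replicate 1 its signal of 44.76 came with a score of 407, below the lowest score of 830 in the thresholded lists. That score is the authors' irreproducible discovery rate (IDR) scaled from 0 to 1000, where higher values mark peaks whose rank was better repeated. A peak 259 bp from the inner Pfk TSS in the ranked list of replicate 2, which keeps peaks below the threshold, had a signal of 29.25 and a score of 486.

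Ald1 (FBgn0000064) encodes the fructose-bisphosphate aldolase that splits the sugar into trioses. It lies on 3R from 26254069 to 26261591 on the minus strand, with 10 transcripts and 5 TSSs, and carried strong summits at separate starts. The one at 26261474 had a signal of 2031, rank 44, and lay in the 5' untranslated region between the outermost TSS, 117 bp away, and the second, 62 bp away. The one at 26259153 had a signal of 1310, rank 117, and lay 60 bp downstream of an internal TSS that is 2378 bp inside the gene, in the 5' untranslated region or an intron depending on the transcript. In replicate 1 the signals were 452.4 and 393.5, and in replicate 2 they were 1579 and 928.2. The outer summit was thus the higher one in both replicates. It also lies in an exon of the antisense gene asRNA:CR44321, whose TSS is 572 bp away.

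Tpi (FBgn0086355) encodes the triose phosphate isomerase that interconverts the products of that split, and it was not bound. None of the 4 thresholded lists held a summit within 5 kb of it, and the nearest replicate-supported summit was 31246 bp from a TSS. The ranked list for both replicates held a peak 251 bp upstream of its outer TSS with a signal of 49.83 and a score of 148. Near it, replicate 1 had a signal of 30.11 with a score of 550, and replicate 2 had 15.93 with a score of 47. Replicate 2 also had a ranked peak 113 bp upstream of the inner TSS, with a signal of 20.81 and a score of 289.

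The genes for glyceraldehyde-3-phosphate dehydrogenase, the enzyme that makes NADH in the pathway, differed from each other. Gapdh2 (FBgn0001092; X, 15868145 to 15869661, plus strand) had a summit 149 bp upstream of its outer TSS with a signal of 573.9, rank 465. Its signal was 206.2 in replicate 1 and 370.6 in replicate 2, and it was in both thresholded lists. Gapdh1 (FBgn0001091; 2R, 7791901 to 7793380, minus strand) had none within 5 kb in any of the 4 thresholded lists, and the nearest replicate-supported summit was 10493 bp from a TSS. In the ranked list a peak 387 bp downstream of a Gapdh1 TSS had a signal of 51.56 and a score of 113, and in replicate 2 it had 37 with a score of 182. Replicate 1 had no peak there, and its nearest, 212 bp upstream of the outer TSS, had a signal of 12.81 and a score of 38. Absence from a thresholded list does not show that a site is free of Adf1, and the read depth behind these lists is not known.

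Pgk (FBgn0250906), for the phosphoglycerate kinase that makes the first ATP of the payoff phase, was bound at the innermost of its 5 TSSs. It lies on 2L from 2746880 to 2753068 on the minus strand. The summit at 2748694 was 207 bp upstream of that start, 4374 bp inside the gene from the outermost TSS, with a signal of 167.4 (77.4 in replicate 1 and 85.91 in replicate 2). The ranked list held 5 more peaks in the window whose score of 1000 is past the threshold but which the thresholded list omits. Their signals were 819.6 at 2340 bp upstream of the outermost TSS, 182.5 at 141 bp upstream of it, 162.2 at 291 bp upstream of an internal TSS, 100.2 and 55.22, and none was in either replicate's own thresholded list. The strongest of them exceeded the listed Pgk summit in both replicates, at 200.8 in replicate 1 and 627.3 in replicate 2. The peak 141 bp from the outermost Pgk TSS is 24 bp from the TSS of the neighbouring gene Bacc. Of 4531 ranked peaks past the threshold 161 (3.55%) were omitted in this way, and Pgk was the only one of the 10 genes with any within 5 kb. The thresholded lists name an additional input file that the ranked lists do not, and what it holds is not given in the sources used here, so the reason for the omission was not tested.

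Eno (FBgn0000579; 2L, 1724768 to 1729636, minus strand) encodes enolase, which forms phosphoenolpyruvate. Its stronger summit, at 1727958 with a signal of 396.4, rank 717, lay in an intron 241 bp upstream of its innermost TSS and had signals of 130.5 in replicate 1 and 261.5 in replicate 2. The weaker, 67 bp upstream of the outermost TSS, had a signal of 107.9 (40.24 in replicate 1 and 58.83 in replicate 2) and was in neither replicate's own thresholded list. It also lay 184 bp upstream of CG31937, which is transcribed in the opposite direction, so this summit cannot be assigned to either gene by position alone.

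PyK (FBgn0267385; 3R, 22367536 to 22372746, plus strand) encodes pyruvate kinase, the enzyme of the last step to pyruvate. The summit at 22369036, with a signal of 152.1 (67.11 in replicate 1 and 81.19 in replicate 2), lay in an intron 246 bp upstream of its internal TSS and 1500 bp past the outer one. A summit 4788 bp before the outer TSS, with a signal of 186.2, was 128 bp inside CG7071 and Muted, which share a start, and 377 bp from JMJD6. That summit had signals of 89.22 in replicate 1 and 93.82 in replicate 2.

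Ldh (FBgn0001258; 3L, 6259105 to 6262694, minus strand) encodes lactate dehydrogenase, a well-known marker of the embryonic switch to glycolysis. Its summit lay 210 bp upstream of the outermost TSS with a signal of 240.4, rank 1286, and had signals of 94.05 in replicate 1 and 138.9 in replicate 2. The non-coding RNA gene lncRNA:CR44522 has its TSS 495 bp from this summit. A second summit in the Ldh window, with a signal of 174.5, was 2192 bp past the 3' end of Ldh and 248 bp upstream of Best2. Both were in each replicate's own list.

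**Figure D2:**
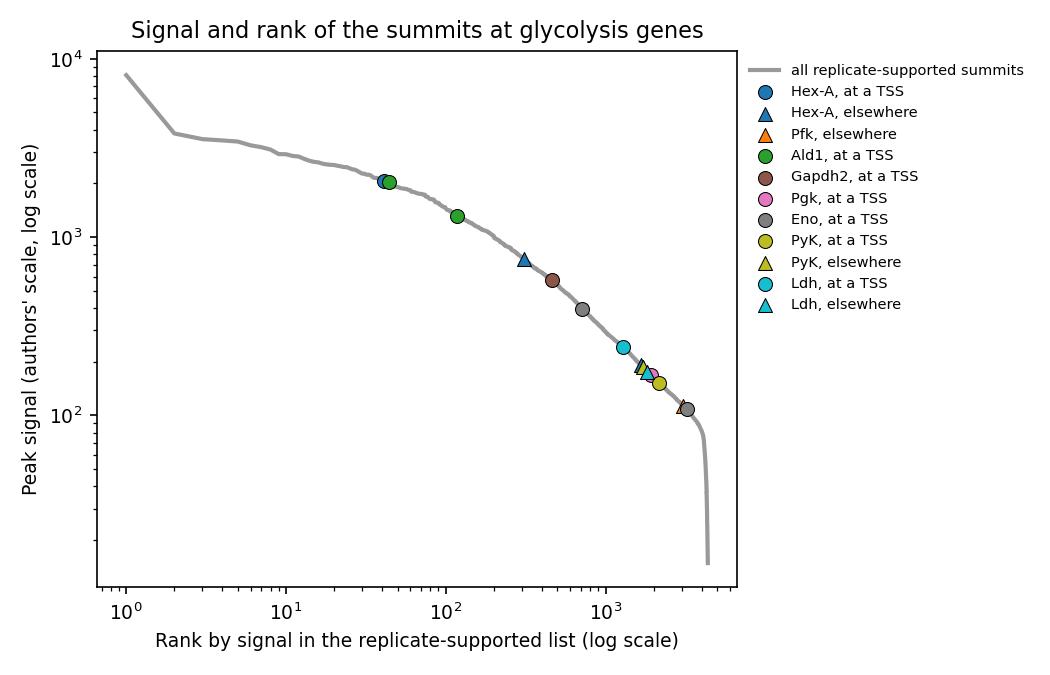
Signal (vertical, authors' scale, log) against rank (horizontal, log) for all 4370 replicate-supported summits (grey line), with the 14 summits in the glycolysis windows as coloured points, circles within 500 bp of a TSS of the named gene and triangles elsewhere. Hex-A and Ald1 stand at ranks 41, 44 and 117, and the weaker Eno summit at rank 3219.

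Signals among the bound genes spanned a wide range. Of the 9 summits within 500 bp of a TSS of these genes, 3 were in the strongest 5% of the list, 5 in the strongest 25% and 8 in the strongest 50%. Their median signal was 396.4, against 151.3 for all 2544 summits within 500 bp of a protein-coding TSS, and the 3 summits of Hex-A and Ald1 stood apart from the rest.

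Distances of these 9 summits to the nearest TSS were grouped after they were seen. The distances of all TSS summits are not given for comparison. The summits of Pgk, PyK and Ldh and the stronger one of Eno lay between 207 and 246 bp upstream of their nearest TSS, and those of Hex-A and Ald1 and the weaker one of Eno between 52 and 67 bp from one, while that of Gapdh2 lay at 149 bp. Of the 9 summits, 8 were upstream of the nearest TSS of the gene, with the internal Ald1 summit as the exception, against 71.1% of all TSS summits. That share includes summits at genes with a single TSS, so it is not a like comparison. At 6 of the 9 the nearest TSS was not the outermost of the gene. The share was 34.3% over all TSS summits and 56.7% over the 1539 at genes with at least 2 TSSs, and the latter is the like comparison because all 10 genes have several. These 6 were at Hex-A, at both Ald1 starts, at Pgk, at PyK and at the stronger Eno summit, while Gapdh2, Ldh and the weaker Eno summit were at the outermost TSS. The omitted ranked peaks at Pgk described above were not counted. Of these, the peak with a signal of 182.5 lay 141 bp upstream of the outermost Pgk TSS. The peak with a signal of 162.2 lay at an internal one.

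Both replicates' own lists held the same 7 genes, although these lists come from the libraries behind the replicate-supported list and are no independent sample. In replicate 1's own list, of 3126 summits on the 7 arms, 7 of the 10 genes were bound against 14.3% of all protein-coding genes, and in replicate 2's own list, of 6003 summits, 7 were bound against 23.2%. Of the 14 summits, 12 overlapped a peak in each replicate's own thresholded list, as did 67.2% of all replicate-supported summits. The exceptions were the one past Pfk, absent from replicate 1's list, and the weaker Eno summit, absent from both. The median gap between the summit positions of the replicates was 8.5 bp, against 28 bp over the 4271 replicate-supported summits matched in both.

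Replicate 2 gave higher signals than replicate 1 at 12 of the 14 summits, and the farther upstream Hex-A summit and the one beyond Ldh were the reverse. Over all 4271 matched summits the median ratio of replicate 2 to replicate 1 was 1.66, with 10% of ratios under 0.989 and 10% over 2.84. The ratio was 3.55 at the main Hex-A summit and 3.49 at the outer Ald1 summit, both in that upper 10%. It was 0.716 at the farther Hex-A summit and 0.895 at the one beyond Ldh, both in the lower 10%. The signals depend on depth, which is not known for either library, so these ratios describe the deposited values and not binding strength.

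**Figure D3:**
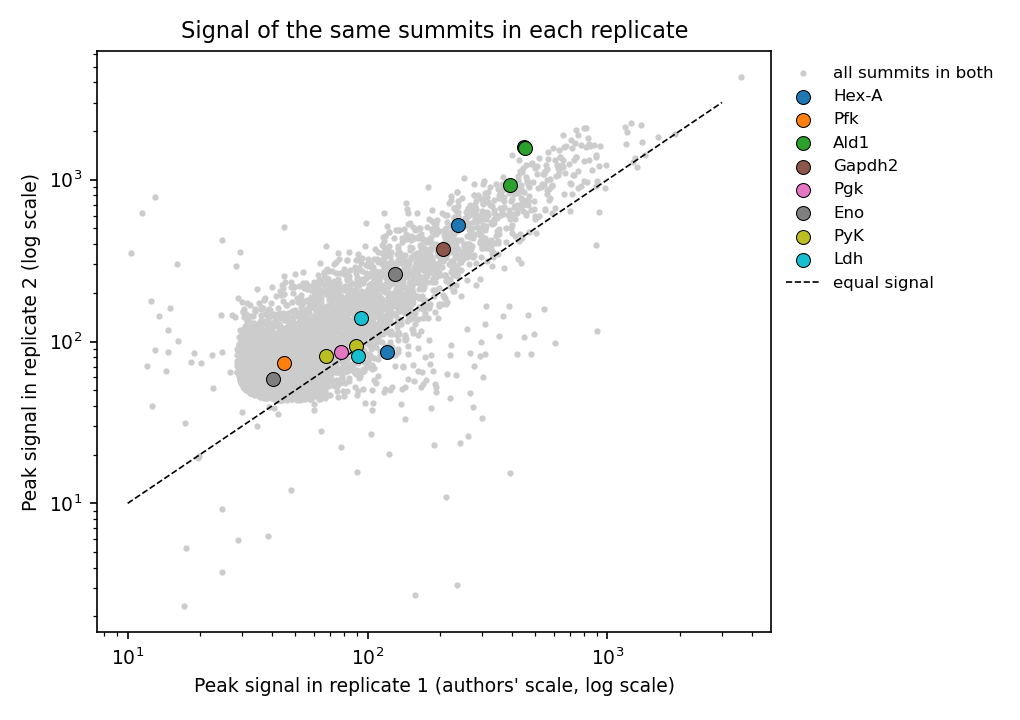
Signal of each summit in replicate 1 (horizontal) and replicate 2 (vertical), both on the authors' scale with log axes, for the 14 summits at glycolysis genes (coloured, named by gene) and for all 4271 matched summits (grey); the dashed line marks equal signal. The main Hex-A summit and the outer Ald1 summit overlap at about 450.7 and 1598, and 2 of the 14 points fall below the line.

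Sequence under the summits was read from the genome within 50 bp to each side. GCNGCNGC occurred at 3 of the 14 summits, the main one of Hex-A and both of Ald1, against 16.0% of all replicate-supported summits and 4.78% of windows of the same length centred 500 bp to either side of them. Over the whole list, the 699 summits with a match had a median signal of 255.1 and a median GC content of 57.4%, and the 3671 without had 142.4 and 45.5%, so the match, the signal and base composition move together and their separate parts were not tested. GC content was 65.3% at the Hex-A summit and 55.4 and 56.4% at the Ald1 summits.

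The summits of Gapdh2 and Ldh and the stronger one of Eno lay in DNA with few G or C bases. GC content was 25.7% at Gapdh2, 24.8% at the Eno summit, and 18.8 and 20.8% at the Ldh summit and the one beyond that gene. With the Gapdh2 value taken as a cutoff after it was seen, 9.59% of all replicate-supported summits (419) had a GC content of at most 25.7%. Their median signal was 153.4. Of those 419, 68 ranked in the strongest 25% of the list, among them the Gapdh2 and Eno summits. Over all 14 summits the median GC content was 40.6%, against 48.5% over the list.

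Other short motifs were searched on both strands with overlapping matches counted. GAGAG, the core of sites for GAGA factor, occurred at 4 of the 14 summits, namely 5 times at the main Hex-A summit and once each at the nearer upstream Hex-A, the Pgk and the weaker Eno summit, against 21.0% of all summits and 13.4% of the flanking windows. Within 100 bp it occurred at 8 of the 14, against 38.0% of all. AAGGTCA, a sequence bound by ERR, occurred at none, against 0.481% of all summits and 0.789% of flanking windows. Within 100 bp it occurred at 2, the main Hex-A and the internal Ald1 summits, against 0.892% of all summits and 1.62% of flanking windows, so over the whole list it was less frequent at summits than beside them. Neither CACGTG, the E-box, nor TATCGATA, the DNA replication-related element, occurred within 50 bp of any of the 14, against 1.35 and 1.56% of all. A match is a stretch of letters and not a proven site, and its absence says only that these letters are not in the window.

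**Figure D4:**
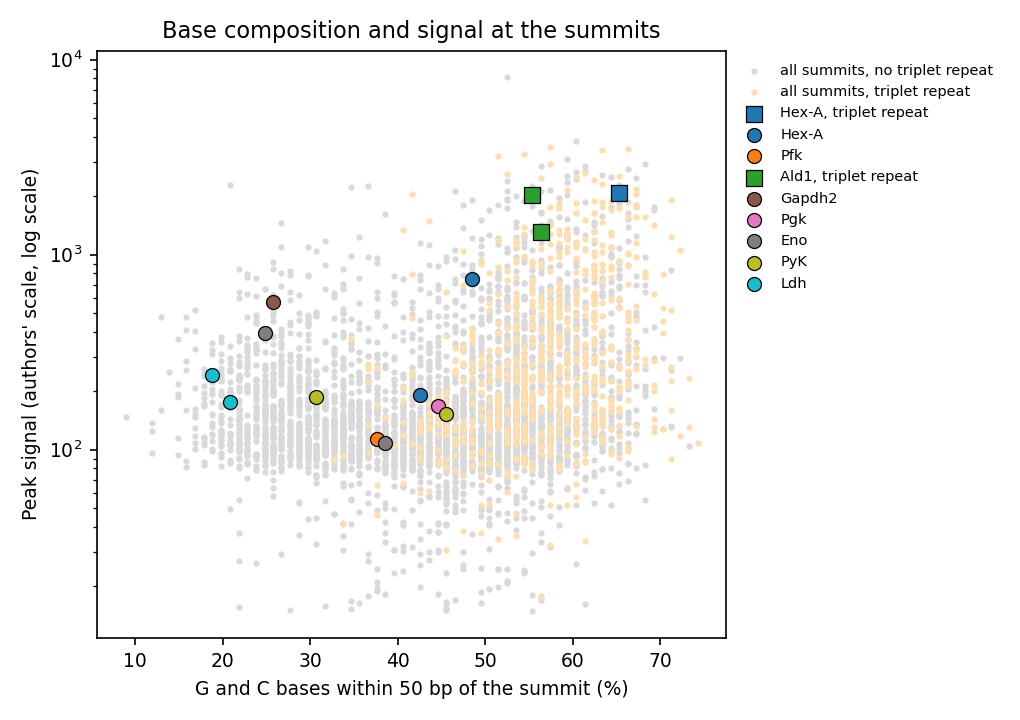
GC content within 50 bp of the summit (horizontal, %) against signal (vertical, authors' scale, log) for the 14 summits at glycolysis genes (coloured by gene, squares where GCNGCNGC is present) and for all 4370 summits (grey without and pale orange with the motif). The squares of Hex-A and Ald1 lie at the upper right, at 55.4% GC or more, and Gapdh2, the stronger Eno summit and both Ldh points at 25.7% or less.

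Genes of adjoining pathways of sugar metabolism were counted in the same way. Of 46 such genes in 6 lists, 20 were bound (43.5%). The shares given above were 18.9% of all protein-coding genes and 34.8% of those with at least 2 TSSs. How many TSSs the 46 genes have is not given here, so neither share is a strictly like comparison. The remaining glycolytic steps and isoenzymes had 2 of 8: Pglym78, the phosphoglycerate mutase gene, with a summit 2 bp from a TSS and a signal of 165.8 at a start region shared with CG11882, and Pfrx, which makes the allosteric activator of phosphofructokinase, with 4 summits of 93.94 to 146.5.

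In the list of gluconeogenesis and pyruvate use 4 of 10 genes were bound, with the strongest summit at Mpc1, for a subunit of the mitochondrial pyruvate carrier. Its summit, 28 bp upstream of the TSS, had a signal of 2006, rank 46, and the signal was 858.5 in replicate 1 and 1154 in replicate 2. The other bound genes of that list were Pepck1, for a gluconeogenic enzyme, with 149.3, Pdhb, for a pyruvate dehydrogenase subunit, with 126.8, and Pdp, for its phosphatase, with 120.1. The summits of Pepck1, Pdhb and Pdp each had another protein-coding TSS within 500 bp.

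Among genes of sugar supply and glycogen 4 of 8 were bound: UGP, for UDP-glucose pyrophosphorylase, with a signal of 573.1 at 1 bp from a TSS, the glycogen phosphorylase gene Glyp with 307.5, the glycogen synthase gene Glys with 96.44 and the branching enzyme gene AGBE with 95.5. In the glycerol phosphate shuttle 2 of 4 were, Gpdh1 with 160.1, where Sfp26Ad also starts within 500 bp, and Gpo1 with 93.29. In the pentose phosphate pathway 3 of 7 were: Zw, for glucose-6-phosphate dehydrogenase, with 308.4 at 27 bp, CG8036, a transketolase gene, with 290.3, and Rpe with 109.8.

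Regulators of sugar metabolism were bound in 5 of 9 cases. ERR itself had a summit 187 bp upstream of a TSS with a signal of 234.2, and the gene Atg18a also has a TSS within 500 bp of it. The hypoxia factor gene sima had a summit of 274, sug, for a sugar-responsive zinc finger protein, one of 190.6, bigmax, for the partner of Mondo, one of 164.6 with Hmu starting nearby, and Hnf4, a nuclear receptor gene, one of 137.4. Mondo, tgo, Hph and foxo had none. Among the bound genes of these lists, the summits of Pglym78, Glys, AGBE, Gpdh1 and Rpe overlapped no peak in replicate 1's own thresholded list. That of Pepck1 overlapped none in replicate 2's. Of the Pfrx summits, only the one with a signal of 94.66 overlapped a peak in both. Presence of a summit at a gene does not show that its transcription depends on Adf1.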

How the data were processed

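Binding of Adf1-eGFP was measured by ChIP-seq in whole embryos, 2 biological replicates. Per the labels, sonicated fragments of 200 to 800 bp were sequenced and the assembly was dm6. The authors derived the peak lists from alignments and a control file, per the deposited file lists; the sources used here name no aligner or peak caller. A peak's signal is as deposited, with no scale given. The score, from 0 to 1000, is the authors' deposited scaled IDR. The deposited -log10 q values were not used, and the authors' other column is the summit offset. The lists hold no read counts, so depth is not known. A further 16 columns of the ranked lists for both replicates carry no column names and were not used.

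From these, summits (peak start plus the authors' offset, 1-based) on 7 arms were set against TSSs, the 5' ends of all transcripts, of the Ensembl annotation BDGP6.54, release 115. Chromosome lengths fitted the Release 6 RefSeq genome, and 42 of 42 annotated start codons of the 10 genes read ATG there. A summit was matched to a replicate by the nearest summit within 250 bp in its ranked list; presence in a thresholded list meant overlap by 1 bp or more. No test was run, because the design has 1 group. The genes, lists and motifs were chosen with earlier results of these data known, so the counts are descriptions. All 10 genes were named, and bound genes of the other lists; 3 older symbols were matched through RefSeq synonyms. The counting of bound genes was tested on simulated summits at known distances, and every one was classed correctly. The expected class used the same TSSs and distance rule, so this check covers the counting step and cannot reveal wrong TSS positions. Alternatives were other lists, distances, windows, overlap rules and nearest-gene assignment. The tools were Matplotlib 3.10.9 for plots, and NumPy 2.4.6 under Python 3.11.15.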

Additional observations from a re-analysis of the deposited data

How the results depend on the processing

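The 7 bound glycolysis genes were the same ones under 7 other settings, while the share of all protein-coding genes bound moved with each. That share was 23.2% in the optimal list, 14.3 and 23.2% in the own lists of replicates 1 and 2, and 9.71% among the stronger 50% of the list by signal. It was 21.4% within 1000 bp, 15.3% by nearest gene and 19.3% with the omitted ranked peaks put back, an alternative chosen after seeing the data. Within 200 bp 4 were bound, Hex-A, Ald1, Gapdh2 and Eno, against 15.2%, since the summits of Pgk, PyK and Ldh lie farther out. Eno was kept there only through its weaker summit, which is in neither replicate's own list and lies near the start of CG31937. Without the authors' threshold, in the ranked form of the replicate-supported list, 9 were bound, with Tpi and Gapdh1 added, against 51.4%. Pfk was not bound there, but the ranked form of the optimal list held a peak 274 bp from its inner TSS, with a signal of 36.51 and a score of 328. Of the 46 other genes 11 were bound among the stronger 50% of the list, against the same 9.71%, and 36 without the threshold, against the same 51.4%. The own lists of replicates 1 and 2 gave 16 and 26 of the 46, and 14 and 16 summits within 5 kb of the glycolysis genes. Windows of 10 kb held 25 summits, and those of 5 kb held 19 with the omitted ranked peaks put back. Under 50% reciprocal overlap 8 of the 14 summits were in both own lists, against 48.1% of all. Matches to GCNGCNGC numbered 3 of 14 within 25, 50 and 100 bp, while the share of all summits rose from 9.43 through 16.0 to 23.8%. No paired analysis was possible because the series has a single group. Read depth, which limits what a missing peak can show, is not known.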
